A study of Mus musculus with 16 samples.

Results

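Transcripts of 10 secreted cytokines, Tnf, Il6, Il12a, Il12b, Il23a, Il27, Il10, Csf3, Lif and Osm, were followed in mouse bone marrow-derived macrophages treated with lipopolysaccharide (LPS) and the REV-ERB agonist SR9009. The genes were chosen by name from the deposited table of 56748 genes, and all 10 were found in it. Macrophages were grown from the marrow of 4 wild type male C57BL6 mice in medium with L929 cell supernatant, a source of macrophage colony-stimulating factor, and each mouse gave 1 library to each of 4 groups. The groups were SR9009 and LPS (10 µM SR9009 overnight, for 16 hours, then 100 ng/mL LPS for 6 hours), LPS (the same LPS dose and time), SR9009 (the same SR9009 dose and time) and DMSO (vehicle). For the LPS group the labels give only LPS, and whether those cells were kept in DMSO overnight is not stated in the sources used here. A difference in vehicle may therefore be part of LPS versus DMSO, of SR9009 and LPS versus LPS, and of the interaction.

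LPS is a component of the outer membrane of Gram-negative bacteria that macrophages sense through Toll-like receptor 4, which signals to NF-κB, AP-1 and interferon regulatory factors and switches on cytokine genes. The cytokines have distinct roles. TNF and IL-6 drive inflammation, the heterodimers IL-12, IL-23 and IL-27 steer T cells, G-CSF (Csf3) acts on neutrophils, LIF and oncostatin M (Osm) belong to the IL-6 family, and IL-10 restrains macrophage activation. REV-ERBα and REV-ERBβ (Nr1d1 and Nr1d2) are repressors of the circadian clock that bind heme and recruit the NCoR and HDAC3 corepressor.

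The 16 libraries held 12616442 to 24214863 counts each, and 13438 genes passed the filter on low counts. The 8 members that passed were Tnf, Il6, Il12a, Il12b, Il27, Il10, Csf3 and Osm, whereas Il23a and Lif were too low to be tested and are described by their counts. All 8 macrophage markers were measured, with summed levels of 7716 to 8114 CPM (read counts scaled to the effective size of the library) in the SR9009 and LPS libraries, 8086 to 9430 CPM in LPS, 5456 to 8241 CPM in SR9009 and 6493 to 10285 CPM in DMSO. Of 50 markers of 8 other cell types, 42 were below 1 CPM in every library, among them Cd3e, Flt3 and Elane, and 13, among them Ly6g, Ncr1 and Cd209a, had no count. The 7 T cell markers summed to 5.74 to 11.9 CPM in the SR9009 and LPS libraries and 5.67 to 11.0 CPM in LPS. They summed to 0.835 to 8.69 CPM in SR9009 and 5.18 to 9.99 CPM in DMSO. Lck led them in LPS and Cd4 in the other groups, while Cd3d, Cd3e, Cd3g, Cd8a and Trac were below 1 CPM in every library. The 6 dendritic cell markers, led by Ccr7 after LPS, summed to 1.14 to 3.41 CPM in the SR9009 and LPS libraries, 1.64 to 8.40 CPM in LPS, 0.322 to 1.74 CPM in SR9009 and 0.334 to 2.41 CPM in DMSO. The 8 neutrophil markers, led by S100a8, summed to 0.706 to 5.80 CPM in the SR9009 and LPS libraries, 2.16 to 7.24 CPM in LPS, 0.237 to 0.905 CPM in SR9009 and 0.182 to 0.401 CPM in DMSO. The 6 NK cell markers summed to 0.355 to 6.71 CPM in the SR9009 and LPS libraries and 2.09 to 8.98 CPM in LPS, led by Klrk1 in both, 0 to 0.271 CPM in SR9009 and 0.0657 to 0.461 CPM in DMSO, and Ncr1, Gzma and Eomes among them had no count in any library. The part of these cells in the cytokine levels was not tested. In bulk RNA, fewer cells that make a cytokine and less of its RNA per cell cannot be told apart.

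The SR9009 library of mouse 1 stood apart. It had the lowest total and the fewest genes detected, 13298, against 16419 to 18947 in the other libraries. In it 9 of the 10 cytokines had no count, Osm being the exception with 71 counts, while Tnf had 178, 241 and 329 counts in the other 3 SR9009 libraries. Of 9784 tested genes with at least 100 counts in each of those 3 libraries, 120 (1.23%), Tnf among them, had no count in mouse 1. It is called the sparse library from here on, and results that rest on the SR9009 group are given with and without it.

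The promoters of 5 of the 10 genes were in the RefSeq promoter table (GRCm38.p6), and 3 are shown because their transcripts had the highest levels with LPS among these 5. Each sequence is the 250 bases before the transcription start, read 5′ to 3′ on the strand of the gene, and capitals mark matches to an NF-κB consensus, to the AP-1 motif TGANTCA or to the C/EBP motif TTNNGNAA, searched on both strands. The windows are chr5:30012864-30013113 (plus strand) for Il6, chr11:44399813-44400062 (plus strand) for Il12b and chr17:35202008-35202257 (minus strand) for Tnf.
Il6: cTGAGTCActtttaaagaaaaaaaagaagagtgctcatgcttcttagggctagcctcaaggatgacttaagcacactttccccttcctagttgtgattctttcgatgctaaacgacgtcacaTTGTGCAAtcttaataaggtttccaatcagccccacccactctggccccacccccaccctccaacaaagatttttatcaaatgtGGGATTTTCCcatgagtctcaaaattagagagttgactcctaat
Il12b: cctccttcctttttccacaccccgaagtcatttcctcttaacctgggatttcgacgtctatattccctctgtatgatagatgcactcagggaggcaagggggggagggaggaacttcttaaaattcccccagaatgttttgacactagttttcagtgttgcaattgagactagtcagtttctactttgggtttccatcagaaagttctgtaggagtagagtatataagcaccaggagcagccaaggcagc
Tnf: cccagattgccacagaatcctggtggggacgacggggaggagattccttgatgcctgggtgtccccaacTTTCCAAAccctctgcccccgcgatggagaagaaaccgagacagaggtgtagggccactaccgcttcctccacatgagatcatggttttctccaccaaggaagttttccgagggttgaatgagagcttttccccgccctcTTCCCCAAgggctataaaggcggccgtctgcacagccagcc
The Il6 window held 1 match of each kind, none overlapping: TGAGTCA (AP-1) at 249 to 243 bases before the start, TTGTGCAA (C/EBP) at 128 to 121, and GGGATTTTCC (NF-κB) at 44 to 35. The Tnf window held C/EBP matches at 181 to 174 and 41 to 34 bases before the start, and the Il12b window held no match. Of 32851 promoter windows of this length, 7.25% held the NF-κB consensus, 6.75% the AP-1 motif and 36.8% the C/EBP motif. The hexamer AGGTCA, which REV-ERB and ROR receptors recognise, was in 14% of all windows and in none of the 6 windows of the cytokine genes. These are matches of letters, and binding was not measured.

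By position (GRCm39), 4 of the 10 genes lie on chromosome 11. Osm (4186420 to 4191026, plus strand) and Lif (4207557 to 4222514, plus strand) are neighbours with 16.5 kb between them, and Il12b and Csf3 lie farther along. The level of each gene per unit length, from the deposited FPKM values, spanned a wide range in LPS-treated cells. With SR9009 and LPS, Tnf averaged 474 ± 251 FPKM, Il27 171 ± 121, Il12b 34.0 ± 24.2, Il10 12.5 ± 4.60, Il6 9.30 ± 8.63, Osm 2.03 ± 0.84, Csf3 1.39 ± 1.65 and Il12a 0.462 ± 0.472 FPKM (SD, n = 4 each). With LPS, Tnf averaged 565 ± 88.1 FPKM, Il27 241 ± 107, Il12b 48.9 ± 34.0, Il10 44.0 ± 11.1, Il6 13.5 ± 7.93, Csf3 11.8 ± 11.7, Osm 4.01 ± 0.49 and Il12a 0.302 ± 0.166 FPKM. Lif and Il23a came last in both groups, below 0.1 FPKM on average. In the LPS group Il12b overlapped Il10, Csf3 overlapped both Il6 and Osm, and Lif overlapped Il23a. Il12b also overlapped Il6 narrowly, its lowest value being 23.94 FPKM against a highest of 23.98 for Il6. Tnf and Il27 stood clear of each other and of the rest. In the SR9009 and LPS group all neighbours in the order overlapped, except that Il27 stood above Il12b.

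**Figure D1:**
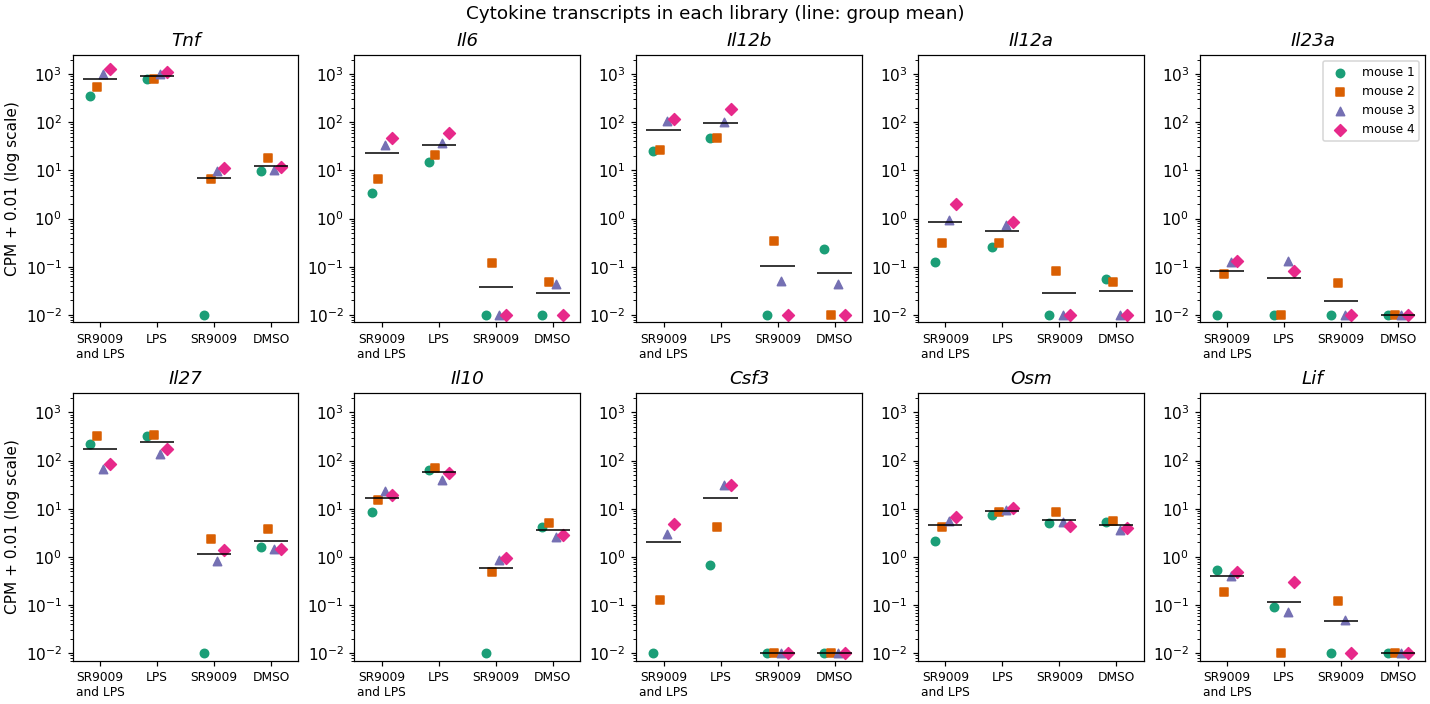
TMM-scaled CPM plus 0.01 (log axis) of the 10 cytokine transcripts in each library, by group, with 1 symbol per mouse and a line at the group mean. With LPS, with or without SR9009, Tnf, Il6, Il12a, Il12b, Il27 and Il10 lay above all libraries without it. For Il12a, which is near the floor, the closest values were 0.117 CPM with LPS and 0.0730 CPM without. Osm ranged from 2.17 to 10.6 CPM over all libraries.

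LPS versus DMSO asks how the untreated macrophages answered LPS. All 8 tested cytokines rose, by edgeR's quasi-likelihood test with Benjamini-Hochberg adjustment over all genes, where 19.4% of the genes tested were higher and 20.4% lower. Their groups did not overlap, which held in the higher direction for 27.1% of genes, and each was higher in 4 of 4 mice, as were 33.5% of genes. Osm had the smallest change of the 8, 1.99-fold.

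Tnf had 797, 786, 989 and 1124 CPM in the LPS libraries of mice 1 to 4, against 9.50, 18.1, 10.2 and 12.0 CPM with DMSO. It was already the highest of the 10 per unit length with DMSO, and rose by 6.21 on the log2 scale (SE 0.85, edgeR adjusted p = 3.31e-05), or 74.2-fold. Il6 had 14.6, 20.9, 37.3 and 59.2 CPM with LPS, against 2 counts in all 4 DMSO libraries together. The ratio of its summed counts, scaled to library size, was 1845 (exact 95% interval 509.9 to 15243, for counting error only; edgeR adjusted p = 4.99e-06). Before LPS, then, Tnf transcripts were well above detection and Il6 transcripts were at its edge.

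Among the IL-12 family, Il12b, whose p40 protein is shared by IL-12 and IL-23, had 47.2, 46.4, 101 and 193 CPM with LPS, against 6 counts in all DMSO libraries, and rose by 10.59 on the log2 scale (SE 1.11, edgeR adjusted p = 2.58e-06). Mouse 1 gave 5 of those 6 counts, and with 1 mouse or library left out the value ran from 9.56 to 12.65. Its partners lagged far behind. Il12a, the p35 chain that pairs with p40 to make IL-12, had 3, 4, 12 and 12 counts with LPS, against 2 counts in all DMSO libraries, a ratio of 30.3 (exact 95% interval 7.72 to 261; edgeR adjusted p = 0.00366), a call that was lost on log2 FPKM plus 1 (limma adjusted p = 0.0832). Il23a, the p19 chain of IL-23, had 3 counts in the LPS libraries and none with DMSO. Il27, the p28 chain of IL-27, had 325, 338, 135 and 174 CPM with LPS, against 1.64, 3.77, 1.47 and 1.48 CPM with DMSO, and rose 116-fold (log2 6.86, SE 0.80, edgeR adjusted p = 7.45e-06). Its partner Ebi3 rose by 2.48 on the log2 scale (SE 0.44, edgeR adjusted p = 0.000315), to 260 ± 23.5 CPM with LPS, against 46.5 ± 9.29 CPM with DMSO (SD, n = 4 each). The plot of subunit levels per gene length shows both chains of IL-27 high after LPS, and p40 high with little p35 or p19.

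**Figure D2:**
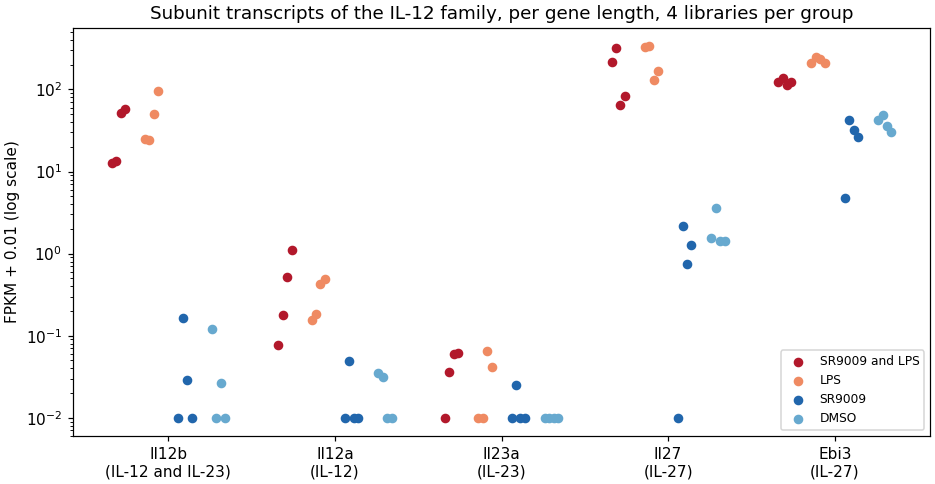
Deposited FPKM plus 0.01 (log axis) of the subunit genes of IL-12, IL-23 and IL-27 in the 4 libraries of each group. In both LPS groups every Il27 and Ebi3 value lay above every Il12a and Il23a value.

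Il10 had 64.7, 69.8, 38.8 and 55.4 CPM with LPS, against 4.23, 5.03, 2.60 and 2.89 CPM with DMSO. The fold lay between 13.9 and 19.2 in the 4 mice, and Il10 rose 15.5-fold (log2 3.95, SE 0.51, edgeR adjusted p = 2.01e-05). Csf3 had 0.665, 4.11, 31.5 and 31.4 CPM with LPS and no count in any DMSO library. Summed over the group it was at least 661-fold higher with LPS, against a floor of 3 counts over the 4 DMSO libraries (edgeR adjusted p = 0.00410), although mouse 1 gave 8 of the 1014 counts. Osm had 7.48, 8.76, 9.55 and 10.6 CPM with LPS, against 5.27, 5.46, 3.67 and 3.91 CPM with DMSO. It rose by 0.99 on the log2 scale (SE 0.32, edgeR adjusted p = 0.0231), a call that was kept in 22 of 31 other settings. The Osm call was lost with upper-quartile scaling (0.80, adjusted p = 0.0537), which shifted the median of all genes by −0.19, without the low-count filter, without mouse 2, 3 or 4, and without the DMSO or the LPS library of mouse 3 or of mouse 4 (adjusted p from 0.0501 to 0.161). Lif had 1, 0, 1 and 4 counts with LPS and none with DMSO.

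SR9009 and LPS versus LPS asks whether the levels with LPS differed in cells that had SR9009. A change in the rise with LPS is the interaction, given below. None of the 8 tested cytokines passed the threshold in edgeR's test, though 2 (Il10 and Osm) were lower at an unadjusted p under 0.05. Of all genes, 1.06% were called higher and 0.737% lower. DESeq2 called 2 of the 8 lower (Il10 and Osm), against 2.55% of all genes, and limma-voom called 1 (Il10), against 1.03%. With the mouse as a block 1 of 8 was lower (Csf3), against 1.78% of genes, and with the block and without the sparse library 3 were lower (Il10, Csf3 and Osm), against 9.7%. The groups did not overlap for Il10 and Osm, both lower with SR9009 and LPS, as were 7.78% of the genes tested. Lower levels in 4 of 4 mice were seen for 5 of the 8, Il6, Il27, Il10, Csf3 and Osm, and for 22.9% of all genes.

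Il10 had 8.40, 15.5, 22.9 and 19.6 CPM in the SR9009 and LPS libraries of mice 1 to 4, against 64.7, 69.8, 38.8 and 55.4 CPM in their LPS libraries. Every SR9009 and LPS value lay below every LPS value, and in the 4 mice the level was 13.0%, 22.2%, 59.1% and 35.4% of that with LPS. The log2 fold change was −1.78 (SE 0.47) with an edgeR adjusted p of 0.0709, which missed the threshold. The adjusted p was 0.000477 with DESeq2, 0.0272 with limma-voom and 0.0542 with the mouse as a block. The sparse library is in neither group but enters the shared estimate of spread. When it was left out, the edgeR change was −1.76 (SE 0.30, adjusted p = 0.00264), and 4.79% of all genes were then called lower. Without all libraries of mouse 1 it was −1.46 (edgeR adjusted p = 0.0155), and over the other libraries or mice left out the adjusted p ran from 0.0790 to 0.535.

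Csf3 had no count, 0.118, 3.02 and 4.91 CPM with SR9009 and LPS, against 0.665, 4.11, 31.5 and 31.4 CPM with LPS. Within each mouse SR9009 and LPS was the lower, at 2.86%, 9.59% and 15.6% of LPS in mice 2, 3 and 4, yet the groups overlapped because mice 1 and 2 were low in both. The log2 fold change was −3.07 (SE 1.38, edgeR adjusted p = 0.371) without the block. With the mouse as a block, Csf3 fell by 3.49 on the log2 scale (SE 0.50, edgeR adjusted p = 0.0180), and when the sparse library was also left out the change was −3.33 (SE 0.40, adjusted p = 0.00230). The animals differed most in Csf3 among the 8 tested members with LPS, from 0.665 CPM in mouse 1 to 31.5 CPM in mouse 3.

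Osm had 2.17, 4.18, 5.52 and 6.81 CPM with SR9009 and LPS, against 7.48, 8.76, 9.55 and 10.6 CPM with LPS. The groups did not overlap, and the SR9009 and LPS values lay in the range of the libraries without LPS or below it. The log2 fold change was −0.96 (SE 0.33, edgeR adjusted p = 0.167). It passed with DESeq2 (−0.98, adjusted p = 0.0413) and in edgeR with the block when the sparse library was left out (−0.95, adjusted p = 0.0443). Its neighbour Lif went the other way in counts: 9, 3, 7 and 8 with SR9009 and LPS, against 1, 0, 1 and 4 with LPS. Lif was higher with SR9009 and LPS in 4 of 4 mice, but with 27 and 6 counts in all it was not tested.

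**Figure D3:**
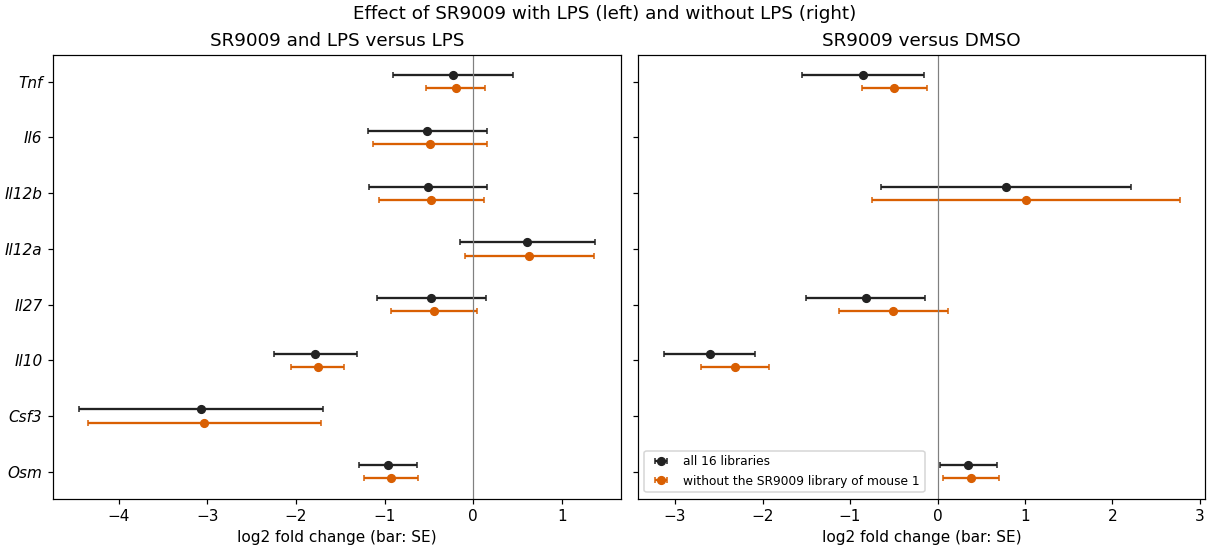
Log2 fold change (points, with SE as bars) of the 8 tested cytokines in SR9009 and LPS versus LPS (left) and, for 5 of them, SR9009 versus DMSO (right, where Il12b rests on 10 and 6 counts), from all 16 libraries and without the sparse library. Il10 lay below 0 in both panels, at −1.78 and −2.61 with all libraries.

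Tnf had 342, 532, 1005 and 1272 CPM with SR9009 and LPS, against 797, 786, 989 and 1124 CPM with LPS. The SR9009 and LPS libraries of mice 1 and 2 lay below all LPS libraries, and those of mice 3 and 4 lay above their own LPS libraries. The log2 fold change was −0.23 (SE 0.68, edgeR adjusted p = 0.946), and it was 0.02 without the SR9009 and LPS library of mouse 1. Il6 had 3.35, 6.77, 34.2 and 47.7 CPM with SR9009 and LPS, against 14.6, 20.9, 37.3 and 59.2 CPM with LPS. It was at 22.9% and 32.4% of LPS in mice 1 and 2 and at 91.7% and 80.5% in mice 3 and 4 (log2 −0.52, SE 0.67, edgeR adjusted p = 0.828).

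Il12b had 24.8, 26.5, 104 and 116 CPM with SR9009 and LPS, against 47.2, 46.4, 101 and 193 CPM with LPS. It was lower in 3 of 4 mice (log2 −0.51, SE 0.67, edgeR adjusted p = 0.831), and the change was 0.07 without the LPS library of mouse 4. Il12a had 2, 5, 16 and 34 counts with SR9009 and LPS, against 3, 4, 12 and 12 counts with LPS (log2 0.61, SE 0.76, edgeR adjusted p = 0.821), and the sign turned without the SR9009 and LPS library of mouse 4 (−0.30). Il23a had 5 counts in all with SR9009 and LPS, against 3 with LPS. Il27 had 218, 328, 67.6 and 86.3 CPM with SR9009 and LPS, against 325, 338, 135 and 174 CPM with LPS. It was lower in 4 of 4 mice, at 67.1% and 97.0% of LPS in mice 1 and 2 and 49.6% in mouse 4, with overlapping groups (log2 −0.47, SE 0.62, edgeR adjusted p = 0.830).

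**Figure D4:**
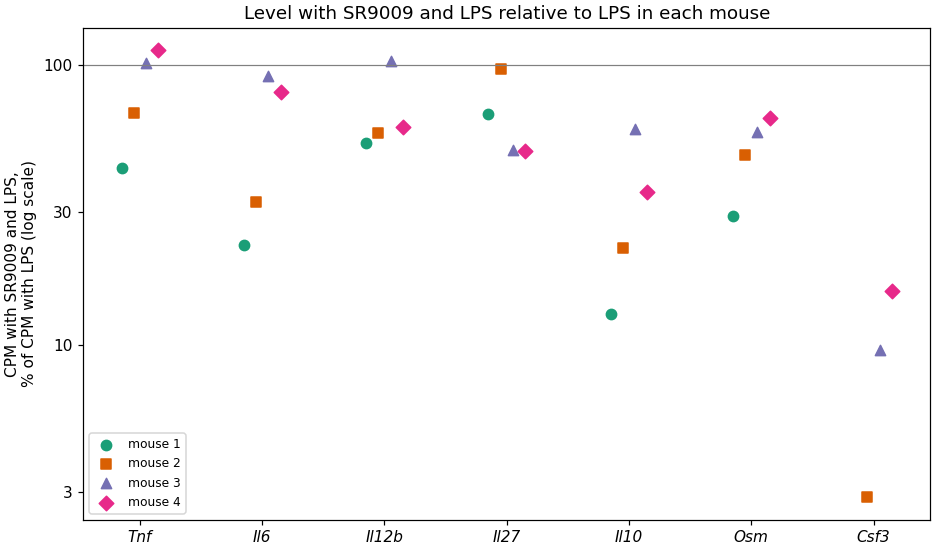
CPM with SR9009 and LPS as a percentage of CPM with LPS in the same mouse (log axis), for 7 cytokines, with 1 symbol per mouse and a line at 100%. Il6, Il27, Il10, Osm and Csf3 lay below 100% in every mouse, and Tnf and Il12b lay on both sides. Csf3 of mouse 1, which had no count with SR9009 and LPS, is not drawn.

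The animals differed among themselves in the same way in both LPS groups for several members. Mice 3 and 4 had higher Il6, Il12a, Il12b, Tnf, Csf3 and Osm and lower Il27 than mice 1 and 2 in both of these groups. Il10 was lower in mice 3 and 4 than in mice 1 and 2 with LPS, but higher with SR9009 and LPS. The share of all genes that split the mice in this way was not computed. The ratio of Il27 to Il12b (FPKM over FPKM) was 16.9 and 23.8 in mice 1 and 2 and 1.25 and 1.43 in mice 3 and 4 with SR9009 and LPS, against 13.3 and 14.0 in mice 1 and 2 and 2.58 and 1.74 in mice 3 and 4 with LPS. Of the 4 other ratios examined, 1 separated the treatments. The ratio of Tnf to Il10 was 32.6, 27.5, 35.0 and 51.9 with SR9009 and LPS, against 9.85, 9.00, 20.4 and 16.2 with LPS, and these groups did not overlap. Il10, its denominator, already separated these groups alone, and Tnf did not. The ratio of Il12b to Il12a was 191, 81.3, 103 and 52.0 with SR9009 and LPS, against 170, 137, 123 and 203 with LPS, and overlapped. The ratios of Il12b to Il10 (1.14 to 3.95 with SR9009 and LPS, against 0.443 to 2.32 with LPS) and of Il27 to Il10 (3.78 to 33.4 with SR9009 and LPS, against 4.03 to 6.45 with LPS) overlapped too.

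SR9009 versus DMSO asks what SR9009 did without LPS. Il10 fell, the only call among the 8 tested cytokines, where 0.566% of all genes were lower and 0.313% higher. It had no count, 0.475, 0.845 and 0.948 CPM with SR9009, against 4.23, 5.03, 2.60 and 2.89 CPM with DMSO. Every SR9009 value lay below every DMSO value, as for 4.65% of all genes, and the log2 fold change was −2.61 (SE 0.52, edgeR adjusted p = 0.0261), 6.08-fold lower. Without the sparse library it was −2.32 (SE 0.39, edgeR adjusted p = 0.00650), where 1.08% of genes were lower. The call was lost with limma-voom (adjusted p = 0.0741, where 0.499% of genes were lower) and when SR9009 and DMSO were fitted alone (0.337). It was also lost when mouse 2, 3 or 4, the DMSO library of mouse 1 or 2, or the SR9009 library of mouse 2, 3 or 4 was left out (edgeR adjusted p from 0.0524 to 0.407). The direction was kept in all 31 settings, with log2 values from −3.15 to −1.41.

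Tnf had no count, 6.50, 9.70 and 11.1 CPM with SR9009, against 9.50, 18.1, 10.2 and 12.0 CPM with DMSO (log2 −0.85, SE 0.69, edgeR adjusted p = 0.671, and −0.50 without the sparse library). Il27 had no count, 2.34, 0.805 and 1.35 CPM with SR9009, against 1.64, 3.77, 1.47 and 1.48 CPM with DMSO (log2 −0.82, SE 0.68, edgeR adjusted p = 0.677, and −0.51 without the sparse library). Both were lower in 4 of 4 mice, as were 12.8% of all genes. Osm, the one cytokine present in all SR9009 libraries, had 4.94, 8.73, 5.31 and 4.37 CPM with SR9009, against 5.27, 5.46, 3.67 and 3.91 CPM with DMSO (log2 0.35, SE 0.32, edgeR adjusted p = 0.711, and 0.38 without the sparse library). Il12b had 10 counts in all with SR9009, against 6 with DMSO, Il6 had 3 against 2, Il12a 2 against 2, and Lif 4 against none, so no difference was detectable for them at this depth. Csf3 had no count in either group.

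SR9009 and LPS versus SR9009 gives the answer to LPS in cells that had SR9009. All tested cytokines but Osm rose, 7 of 8, where 14.5% of genes were higher and 15.8% lower. Tnf rose by 6.83 (SE 0.88, edgeR adjusted p = 2.62e-05), Il12b by 9.29 (SE 1.04), Il27 by 7.21 (SE 0.82) and Il10 by 4.78 (SE 0.56) on the log2 scale. Without the sparse library, whose counts of these genes were 0, the values were 6.49, 9.10, 6.92 and 4.50. The ratio of summed, scaled counts was 739 for Il6 (exact 95% interval 252 to 3586) and 40.0 for Il12a (10.6 to 339), and Csf3 was at least 64.6-fold higher with SR9009 and LPS, against a floor of 3 counts over the group. Without the sparse library the edgeR adjusted p was 5.32e-05 for Il6, 0.00293 for Il12a and 0.0499 for Csf3. The Csf3 call (edgeR adjusted p = 0.0344) was lost in 12 of 30 other settings, among them those that left out mouse 2, 3 or 4, the SR9009 library of mouse 2, 3 or 4, or the SR9009 and LPS library of mouse 3 or 4 (adjusted p from 0.0597 to 0.145). Osm had a log2 fold change of −0.32 (SE 0.32, edgeR adjusted p = 0.494), and −0.34 without the sparse library.

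The comparisons above share libraries: the same LPS libraries stand in LPS versus DMSO and in SR9009 and LPS versus LPS, and the SR9009 libraries in the remaining ones. The difference between the SR9009 effects in the presence and absence of LPS (the interaction) was therefore tested itself. None of the 8 tested cytokines was called in it by edgeR, DESeq2 or limma-voom, which called 0.00744%, 0.766% and 0% of all genes, and 1, Osm, had an unadjusted edgeR p under 0.05. It was −1.31 for Osm (SE 0.46, edgeR adjusted p = 0.520), 0.82 for Il10 (SE 0.68, 0.869), 0.62 for Tnf (SE 0.97, 0.948), 0.35 for Il27 (SE 0.91, 0.987) and −1.29 for Il12b (SE 1.60, 0.931) on the log2 scale. Without the sparse library these values were −1.31 for Osm, 0.56 for Il10, 0.29 for Tnf, 0.06 for Il27 and −1.48 for Il12b. The counts of Il6, Il12a and Csf3 without LPS were too near 0 for an interaction value to be given, and those of Il12b were few.

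The receptors of the cytokines were also measured, 12 of 13 above the filter. With LPS 5 were higher and 3 lower than with DMSO (median log2 fold change 0.07, against −0.08 for all genes). Of all genes tested, 19.4% were higher and 20.4% lower. Tnfrsf1b, the second TNF receptor, rose by 3.21 (SE 0.41, edgeR adjusted p = 1.72e-05) and Csf3r, the G-CSF receptor, by 2.29 (SE 0.39, 0.000246) on the log2 scale. Il23r was near 0 with DMSO, at 0.00821 ± 0.0164 CPM, and rose to 2.03 ± 0.836 CPM with LPS (SD, n = 4 each, edgeR adjusted p = 0.000305). Lifr, the LIF receptor, fell by 2.99 (SE 0.59, edgeR adjusted p = 0.000823), Il6ra, the ligand-binding chain for IL-6, by 1.13 (SE 0.26, 0.00234) and Il6st, the shared gp130 chain, by 1.38 (SE 0.41, 0.0143).

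With SR9009 and LPS 2 receptors were lower than with LPS and none higher (median −0.48, against 0.02 for all genes). Of all genes tested, 0.737% were lower and 1.06% higher. Csf3r had 89.4, 162, 146 and 113 CPM with SR9009 and LPS, against 364, 493, 448 and 333 CPM with LPS. Its groups did not overlap, as for 7.78% of all genes in the lower direction. Csf3r fell by 1.68 on the log2 scale (SE 0.38, edgeR adjusted p = 0.0363). Il6ra had 30.3, 33.8, 53.3 and 46.6 CPM with SR9009 and LPS, against 61.5, 89.9, 125 and 108 CPM with LPS. Its groups did not overlap either, and it fell by 1.23 (SE 0.26, edgeR adjusted p = 0.0240). Both calls were kept without the sparse library, and Il10rb, a chain of the IL-10 receptor, was called lower too. That fit called 4.79% of all genes lower. Il23r, the IL-23 receptor, had no count, 0.353, 0.968 and 1.30 CPM with SR9009 and LPS, against 0.915, 2.82, 1.91 and 2.50 CPM with LPS (log2 −1.63, SE 0.76, edgeR adjusted p = 0.374). No receptor was called by edgeR in SR9009 versus DMSO (median −0.63, against 0.01 for all genes), where 2 were lower at an unadjusted p under 0.05. Without the sparse library none was called either (median −0.63, against −0.02 for all genes), and 3 were lower at that unadjusted p.

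**Figure D5:**
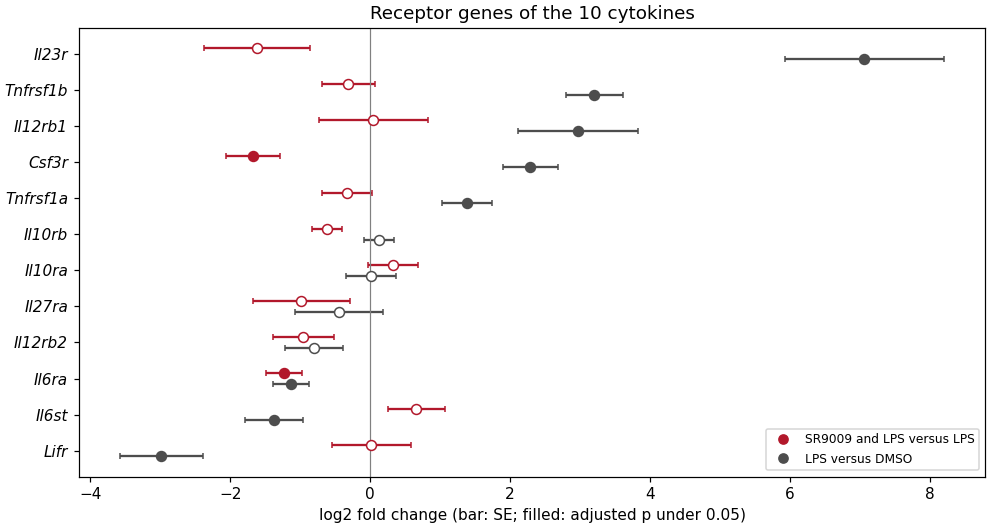
Log2 fold change (points, with SE as bars) of the 12 tested receptor genes in SR9009 and LPS versus LPS and in LPS versus DMSO, filled where the edgeR adjusted p was under 0.05. Csf3r and Il6ra are the 2 filled points of the first comparison, at −1.68 and −1.23.

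Heterodimer partners and release factors, a list of 9 genes with 6 tested, had 5 higher and none lower with LPS than with DMSO. The shares of all genes were 19.4% and 20.4%. Rhbdf2, which brings the TNF-shedding protease ADAM17 to the cell surface, rose by 2.42 (SE 0.53, edgeR adjusted p = 0.00185) and Adam17 itself by 0.71 (SE 0.18, 0.00551). In SR9009 and LPS versus LPS edgeR called none of the 6, also before adjustment (0 with p under 0.05). Ebi3 had 142, 157, 135 and 146 CPM with SR9009 and LPS, against 234, 286, 272 and 248 CPM with LPS. The groups did not overlap, as for 7.78% of all genes in the lower direction. The log2 fold change of Ebi3 was −0.84 (SE 0.42, edgeR adjusted p = 0.396). When the sparse library was left out Ebi3 fell by 0.81 (edgeR adjusted p = 0.00513). It was the 1 gene of the 6 called in that fit, which called 4.79% of all genes lower.

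Downstream of the receptors, 17 of 18 genes of JAK-STAT and SOCS signalling were tested. With LPS 11 were higher and none lower than with DMSO (median 1.23), against 19.4% and 20.4% of all genes. Socs3, the feedback inhibitor of IL-6 signalling, rose by 7.09 (SE 0.95, edgeR adjusted p = 2.82e-05). In SR9009 and LPS versus LPS edgeR called none (median −0.21; 1 higher and 1 lower before adjustment), and 1 was higher and 2 lower without the sparse library, a fit that called 6.68% of all genes higher and 4.79% lower.

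Of 23 genes of transcriptional control, 15 were higher and 1 lower with LPS than with DMSO (median 1.49). The shares of all genes were 19.4% and 20.4%. Nfkbiz, the IκBζ cofactor that Il6 and Il12b need, rose by 3.60 (SE 0.28, edgeR adjusted p = 1.62e-07), and Nr1d2, which encodes the SR9009 target REV-ERBβ, fell by 1.37 (SE 0.34, 0.00439). With SR9009 and LPS versus LPS 1 of the 23 was lower and none higher (median −0.27), against 0.737% and 1.06% of all genes. That one was Maf, a factor that activates Il10 in macrophages, with 256, 598, 519 and 479 CPM with SR9009 and LPS, against 1300, 1198, 829 and 821 CPM with LPS. Maf did not overlap between the groups, as for 7.78% of all genes in the lower direction. It fell by 1.16 on the log2 scale (SE 0.28, edgeR adjusted p = 0.0414). Without the sparse library 5 were lower, in a fit that called 4.79% of all genes lower.

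All 24 genes of TLR4 signalling were tested. With LPS 15 were higher and 4 lower than with DMSO (median 1.18), against 19.4% and 20.4% of all genes. In SR9009 and LPS versus LPS 3 were lower and none higher (median −0.26), against 0.737% and 1.06% of all genes. Dusp1, a phosphatase that switches off p38 MAP kinase, had 12.3, 77.2, 164 and 169 CPM with SR9009 and LPS, against 422, 561, 447 and 542 CPM with LPS. It fell by 2.23 on the log2 scale (SE 0.54, edgeR adjusted p = 0.0474) without overlap, as did 7.78% of all genes. Dusp2, a related phosphatase, fell by 1.84 (SE 0.38, edgeR adjusted p = 0.0233), and Tnip3, a partner of the NF-κB inhibitor A20, by 1.57 (SE 0.27, 0.00748). With the sparse library left out, 6 were lower and 1 higher, against 4.79% and 6.68% of all genes.

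Of 13 genes for proteins that bind or degrade cytokine mRNAs, 6 were higher and 2 lower with LPS than with DMSO (median 0.36). The shares of all genes were 19.4% and 20.4%. Zfp36, which marks Tnf and other AU-rich transcripts for decay, rose by 4.00 (SE 0.40, edgeR adjusted p = 1.47e-06). In SR9009 and LPS versus LPS edgeR called none (median −0.12; 1 higher and 1 lower before adjustment). Zfp36 had 326, 695, 621 and 642 CPM with SR9009 and LPS, against 1143, 1350, 1046 and 1183 CPM with LPS (log2 −1.05, SE 0.35, edgeR adjusted p = 0.166). Its groups did not overlap, as for 7.78% of all genes in the lower direction. In the fit without the sparse library Zfp36 fell by 1.02 (edgeR adjusted p = 0.0185). In that fit 3 of the 13 were lower and 1 higher, against 4.79% and 6.68% of all genes.

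Across the 16 libraries, the protein-coding genes whose profiles lay nearest to 4 of the cytokines were sought among 9394 tested genes that averaged 5 CPM or more, by the root mean square difference of mean-centred log2 CPM. Nearest to Il6 were Shisa3 (0.56), Ptges (0.73) and Cd38 (0.76), and nearest to Il12b were Il6 (0.90), Ccl5 (0.93) and Ptgs2 (0.98). These stayed the nearest without the sparse library. Nearest to Tnf were Oasl1 (0.79), Socs3 (0.88) and Ccl2 (0.91), which gave way to Ccl3 (0.43), Slc7a2 (0.45) and Bcl2a1d (0.48) without that library. Nearest to Il10 were Irf7 (0.63), Trp53i11 (0.67) and Batf2 (0.71), and without that library Irf7 (0.52), Phf11d (0.52) and Trim30b (0.53).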

How the data were processed

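Poly(A) RNA was sequenced from 16 libraries, 4 per group, with 1 library from each of 4 mice in every group. The aligner was HISAT2 and the genome GRCm39 (mm39), per the submitters' processing notes. How reads were counted, whether by strand, and with which annotation is not given in the sources used here, so reads of overlapping antisense genes cannot be told apart. The deposited table held raw counts per gene, per the file headers, with gene coordinates and lengths. The deposited FPKM values were scaled to gene length and library size by the authors, and served to compare levels between genes and as an alternative unit.

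Counts were analysed in R 4.3.3 with edgeR 4.0.16 (TMM scaling, filterByExpr with minimum count 10 and total 15, robust quasi-likelihood fit of all 16 libraries with 1 mean per group). DESeq2 1.42.0 and limma 3.58.1 were alternatives. Tables and figures used Python 3.11.15, matplotlib 3.10.9, numpy 2.4.6, pandas 2.3.3 and scipy 1.17.1. The threshold was a Benjamini-Hochberg adjusted p of 0.05 over 13438 genes. CPM values use TMM-scaled library sizes, and each SE is the size of the change over the square root of its F statistic. Intervals and floors cover counting error only. The fit was tested on simulated data. Same-numbered libraries come from the same animal. Their deviations from the group means correlated with r from 0.0809 to 0.560 (24 pairs, median 0.249), against a median of −0.0899 for 72 other pairs, across genes that are not independent.

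The 10 cytokines, the 6 gene lists and the 9 marker lists were chosen from general knowledge with earlier results of these data known. Named are all cytokines, up to 4 genes of each list with the smallest p in a comparison, and the 3 genes nearest to each of 4 cytokines. Il6ra, Il6st, Il23r and Nr1d2, where they fell outside that rule, were added after their values were seen. Alternatives were RLE and upper-quartile scaling, 2 other filters, DESeq2, limma-voom, limma on log2 FPKM plus 1 or 0.1, mouse as a block, fits of only the 2 groups compared, and each mouse or library left out in turn. For the JAK-STAT and SOCS list, the result in SR9009 versus DMSO is not reported here.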

Additional observations from a re-analysis of the deposited data

Results flagged for a closer look

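In groups of 4 libraries, 36 combinations of cytokine and group were examined for 1 library far from the other 3, by Dixon's 95% criterion on the gap over the range, and 6 were found. Chance gives about 1 in 20 for continuous values, which does not apply where the other libraries are at 0 and any count meets the criterion, as for Il6, Il12a and Il23a with SR9009. In the SR9009 group the highest library lay apart for Il6 (0.110 CPM, 3 counts), Il12a (0.0730 CPM, 2 counts), Il12b (0.329 CPM, 9 counts) and Il23a (0.0365 CPM, 1 count), and all of these were mouse 2. In the DMSO group the highest library lay apart for Il12b (0.227 CPM, 5 counts, mouse 1) and Il27 (3.77 CPM, mouse 2). None of the cytokines with LPS, with or without SR9009, had a library that far from the rest.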

How the results depend on the processing

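The counts of all genes called were higher in every comparison when the mouse was a replicate block and the SR9009 library of mouse 1 was left out, and the cause was not tested. That fit called 8847 genes in LPS versus DMSO (5352 in the fit reported), 586 in SR9009 versus DMSO (118), 2900 in SR9009 and LPS versus LPS (241), 6845 in SR9009 and LPS versus SR9009 (4070) and 271 in the interaction (1). With the replicate block alone it was 198 in SR9009 versus DMSO, 535 in SR9009 and LPS versus LPS and 15 in the interaction. DESeq2 gave 331, 706 and 103 in these 3. With only the compared groups fitted it was 4 in SR9009 versus DMSO, 486 in SR9009 and LPS versus LPS, and 2113 in SR9009 and LPS versus SR9009. Without the low-count filter it was 149 in SR9009 and LPS versus LPS. In the interaction it was 0 with limma-voom, 49 on log2 FPKM plus 1 and 10 on log2 FPKM plus 0.1. Leaving out 1 mouse or library gave 3506 to 7835 in LPS versus DMSO, 1 to 242 in SR9009 versus DMSO, 5 to 1566 in SR9009 and LPS versus LPS, 2430 to 5935 in SR9009 and LPS versus SR9009, and 0 to 41 in the interaction. The counts of 1 and of 5 were without mouse 4, and those of 242, 1566 and 41 without the SR9009 library of mouse 1.

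Cytokines called lower in SR9009 versus DMSO (1) were 0 with limma-voom and with the groups alone, and 0 to 1 with 1 mouse or library left out. Those called lower in SR9009 and LPS versus LPS (0) were 2 with DESeq2, 1 with limma-voom, on log2 FPKM plus 1, with the replicate block and with the groups alone, 3 with the block and without the SR9009 library of mouse 1, and 0 to 1 with 1 mouse or library left out. The block alone changed the call of Csf3 in that comparison and of no other cytokine in any. Signs turned, with no call on either side, for the interaction of Il27 (−0.055 on log2 FPKM plus 1, −0.19 with the block and without that library, and −0.14 to 0.94 with 1 mouse or library left out) and of Il10 (−0.36 on log2 FPKM plus 1). With 1 mouse or library left out, Il12b ran from −1.99 to 2.85 in SR9009 versus DMSO, from −0.90 to 0.068 in SR9009 and LPS versus LPS and from −3.27 to 1.52 in the interaction. In SR9009 and LPS versus LPS Tnf ran from −0.56 to 0.020 and Il12a from −0.30 to 0.97. Counts near 0 limit Il6, Il12a, Il12b, Il23a, Csf3 and Lif without LPS, and with 4 animals a p that misses the threshold does not show that a level was the same.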
